A study of Homo sapiens with 6 samples.

Results

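RETREG1 (older symbol FAM134B) and 8 other receptors for autophagy of the endoplasmic reticulum (ER), RETREG2, RETREG3, SEC62, RTN3, CCPG1, TEX264, ATL3 and CALCOCO1, were examined in SW480 cells, a line established from a human colon carcinoma. The 9 genes are of 19775 that have a single-gene probe set on the array. They are measured by 23 single-gene probe sets of 54675 probe sets in all, and 21 of the 23 passed the filter on low values. RETREG1 was chosen by its higher signal on the gankyrin shRNA arrays, so its values are a description with no test. The other 8 genes were added for their function, with earlier results of these data known. The probe sets were taken for every member whatever their values. SW480 cells carried either an shRNA against gankyrin (n = 3 arrays) or a non-targeting control shRNA (n = 3 arrays), in both cases for 4 days. Gankyrin is the product of PSMD10 and helps to assemble the proteasome's regulatory particle. How many hairpins were used, and whether replicates were separate cultures, is not given in the sources used here, so p-values cover array-to-array spread that could be purely technical.

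Autophagy of the ER, or ER-phagy, delivers pieces of the ER to the lysosome. A receptor sits in or on the ER membrane and binds ATG8-family proteins of the forming autophagosome through a short peptide motif. RETREG1, RETREG2 and RETREG3 bend ER membrane through a reticulon-homology domain, and loss of RETREG1 in humans causes a sensory and autonomic neuropathy. In colon cancer RETREG1 has been studied under the name JK1. RTN3 and ATL3 act on ER tubules, SEC62 belongs to the protein translocation machinery, and CCPG1 is a target of the unfolded protein response. TEX264 carries much of the starvation-induced flux, and CALCOCO1 is a soluble receptor that reaches the ER through VAP proteins.

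The arrays matched their labels. PSMD10 had log2 signals of 6.58, 6.47 and 6.30 with gankyrin shRNA, against 10.19, 10.23 and 10.15 with control shRNA. NFIL3 appears in place of gankyrin in 1 sentence of the design text, and it read 9.12, 9.06 and 9.03, against 9.21, 9.32 and 9.47. Of 10 colon epithelial markers 9 lay above 4.48, the 95th percentile of 107 olfactory receptor probe sets, and CDX2 lay below it. The summed linear signal of these markers was 17267 to 17740 with gankyrin shRNA and 18413 to 19033 with control shRNA. Its genes moved both ways: 4 of the 10 fell (CEACAM5 at -1.14, KRT20 at -0.66, CDH1 at -0.64 and KRT19 at -0.46) and VIL1 rose by 0.82 on the log2 scale (limma adjusted p between 1.06e-04 and 0.00111). Over all 14199 tested genes 14.3% fell and 8.13% rose. Of the markers of other cell types, 2 of 8 for fibroblasts, 2 of 6 for leukocytes and 3 of 6 for endothelium lay above 4.48. The brightest of each list were COL1A1 at 7.22 with gankyrin shRNA and 7.01 with control shRNA, ITGAM at 5.89 and 5.55, and ENG at 5.61 and 5.74. The group means of PTPRC, LUM, COL3A1 and CDH5 were below the olfactory receptors' median of 2.92. Summed signals were 242 to 255 against 197 to 252 for fibroblast markers, 129 to 146 against 113 to 130 for leukocyte markers, and 127 to 144 against 134 to 141 for endothelial markers, gankyrin shRNA first.

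Control replicate 3 stood apart from the other 5 arrays. Its ACTB signal was higher on the 3′ than on the 5′ control probe set by 1.82 on the log2 scale, against 0.43 to 0.53 on the gankyrin shRNA arrays and 0.51 and 0.52 on control replicates 1 and 2. For GAPDH the same difference was 0.56 on control replicate 3, -0.11 to -0.07 on the gankyrin shRNA arrays, and -0.02 and 0.00 on the other controls. A larger 3′ excess is a common sign of shorter RNA or shorter labelled product. The members also ran high on this array: on the brightest probe sets RETREG1 and 6 of the 8 other genes had their highest control value there, as did 56.0% of all tested genes. The median excess of control replicate 3 over the mean of the other controls was 0.24 for those 8 genes and 0.09 for all genes. The part of this array in each result was not tested beyond the values without it that are given below.

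**Figure D1:**
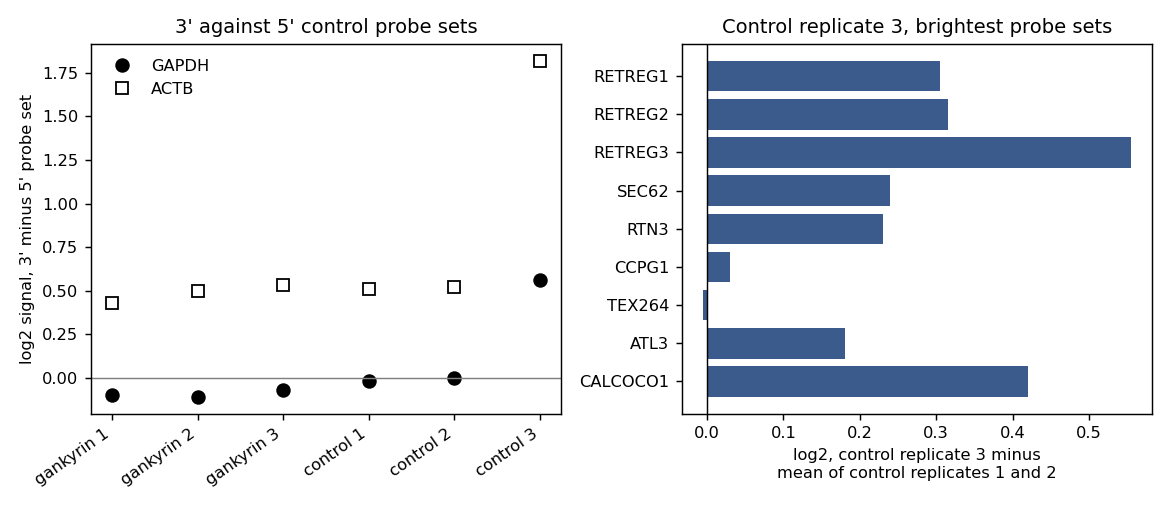
Left, log2 signal of the 3′ minus the 5′ control probe set of GAPDH (filled circles) and ACTB (open squares) on each of the 6 arrays. Right, log2 signal of control replicate 3 minus the mean of control replicates 1 and 2 for the brightest probe set of each receptor. Control replicate 3 lies highest for both control genes, at 0.56 and 1.82, and its excess is largest for RETREG3 at 0.56 and absent for TEX264 at -0.005.

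The promoters of RETREG1 and RETREG2 are shown because these relatives differed between groups in opposite directions. Their groups did not overlap on any probe set past the filter, as was so for 35.5% of all such probe sets. The bases before each annotated start are from RefSeq (GRCh38.p14), matched by symbol, and 8 of the 9 members had an entry. The windows were searched on both strands for 5 motifs. The E-box is CACGTG. The core of the CLEAR element, bound by TFEB-family factors, is TCACGTGA and contains the E-box letters. The CCAAT box was searched as named. The GC box is GGGCGG. The TATA box was searched as TATAAA. Capitals mark every hit. RETREG1 has 2 annotated starts, at chr5:16616998-16617247 and chr5:16508999-16509248 for their windows, both on the minus strand, and RETREG2 is shown at chr2:219178025-219178274 on the plus strand. A second RETREG2 window, at chr2:219178459-219178708 on the same strand, is not printed.
RETREG1 upstream start: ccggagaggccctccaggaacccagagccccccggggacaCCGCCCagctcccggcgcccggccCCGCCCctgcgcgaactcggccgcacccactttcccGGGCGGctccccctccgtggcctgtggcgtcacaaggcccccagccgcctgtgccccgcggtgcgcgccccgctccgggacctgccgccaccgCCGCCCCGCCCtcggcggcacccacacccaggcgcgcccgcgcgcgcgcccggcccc
RETREG1 downstream start: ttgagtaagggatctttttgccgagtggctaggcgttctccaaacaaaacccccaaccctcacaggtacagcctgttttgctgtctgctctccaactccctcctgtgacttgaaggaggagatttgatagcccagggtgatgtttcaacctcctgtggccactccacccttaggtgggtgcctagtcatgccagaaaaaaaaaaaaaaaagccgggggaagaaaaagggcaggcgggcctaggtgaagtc
RETREG2: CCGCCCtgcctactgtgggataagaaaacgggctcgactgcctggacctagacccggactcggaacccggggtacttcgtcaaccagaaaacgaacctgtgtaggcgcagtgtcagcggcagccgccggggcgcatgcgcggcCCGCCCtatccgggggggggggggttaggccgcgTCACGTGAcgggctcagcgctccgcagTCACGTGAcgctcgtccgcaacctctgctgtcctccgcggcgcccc

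The 2 RETREG1 windows differ in composition. The upstream one is 82.8% G and C and holds 5 GC box hits, while the downstream one is 51.6% G and C and holds none of the letters searched. Over all 35116 promoter windows the median is 58.0% G and C, and 42.6% hold a GC box, 32.0% CCAAT and 10.7% TATAAA. The printed RETREG2 window holds TCACGTGA 2 times, with first letters 73 and 46 bases before the start, while the second RETREG2 window holds neither TCACGTGA nor an E-box. An E-box stands in 6.34% of all windows, TCACGTGA in 0.854%, and at least 2 copies of TCACGTGA in 21 windows, or 0.0598%. Of the 11 windows of the 8 members, the printed RETREG2 window alone held an E-box. These matches describe letters, not binding, and the arrays do not tell which start was used.

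RETREG1 signal was higher with gankyrin shRNA on both of its probe sets past the filter. Both carry the _s or _x mark of probes that can bind several transcripts. The RETREG1 probe set without such a mark, 213662_at, lay below the filter limit. Probe set 218532_s_at read 7.05, 6.97 and 6.97 with gankyrin shRNA, against 5.33, 5.60 and 5.77 with control shRNA. Probe set 218510_x_at read 6.65, 6.59 and 6.68, against 5.30, 5.32 and 5.35. On each the groups did not overlap, as on 35.5% of all probe sets past the filter. The means were 7.0 ± 0.05 and 5.57 ± 0.22 on the first probe set and 6.64 ± 0.05 and 5.32 ± 0.03 on the second (SD, n = 3 each). The log2 differences were 1.43 ± 0.11 (SE, gene fit) and 1.32 ± 0.08 (SE, probe set fit), or 2.69-fold and 2.49-fold. The first ranks 8 by size of rise among 14199 genes. RETREG1 was chosen by this rise, so the rank, the SEs and the gap between groups are no test of it. Without control replicate 3 the differences were 1.53 and 1.33. In bulk RNA of this kind, more transcript per cell and more cells that carry it cannot be told apart.

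The other RETREG1 probe sets gave no signal above the low end of the scale. Probe set 213662_at read 2.39, 2.62 and 2.56 with gankyrin shRNA, against 2.32, 2.40 and 2.48 with control shRNA. Probe set 213663_s_at read 1.81, 2.34 and 2.05, against 1.68, 2.15 and 1.92. Both lay below the filter limit of 3.6 and below the median of the olfactory receptor probe sets on every array, and their groups overlapped. They were not tested. The files do not say which part of the transcript any of the 4 probe sets covers.

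RETREG2, the relative of RETREG1, fell. Its brightest probe set 221984_s_at read 9.27, 9.28 and 9.30 with gankyrin shRNA, against 9.49, 9.60 and 9.86 with control shRNA. The gankyrin shRNA arrays lay close together, below all controls. The log2 difference was -0.37 ± 0.09 (SE, limma, adjusted p = 0.0137 over all genes). Without control replicate 3 it was -0.26 ± 0.05 (adjusted p = 0.00122). The call was lost without gankyrin shRNA replicate 1, 2 or 3 (adjusted p = 0.0571, 0.0560 and 0.0519) and when 221983_at stood in for it, a probe set without the _x or _s mark of probes that can bind several transcripts (-0.21, adjusted p = 0.0870).

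**Figure D2:**
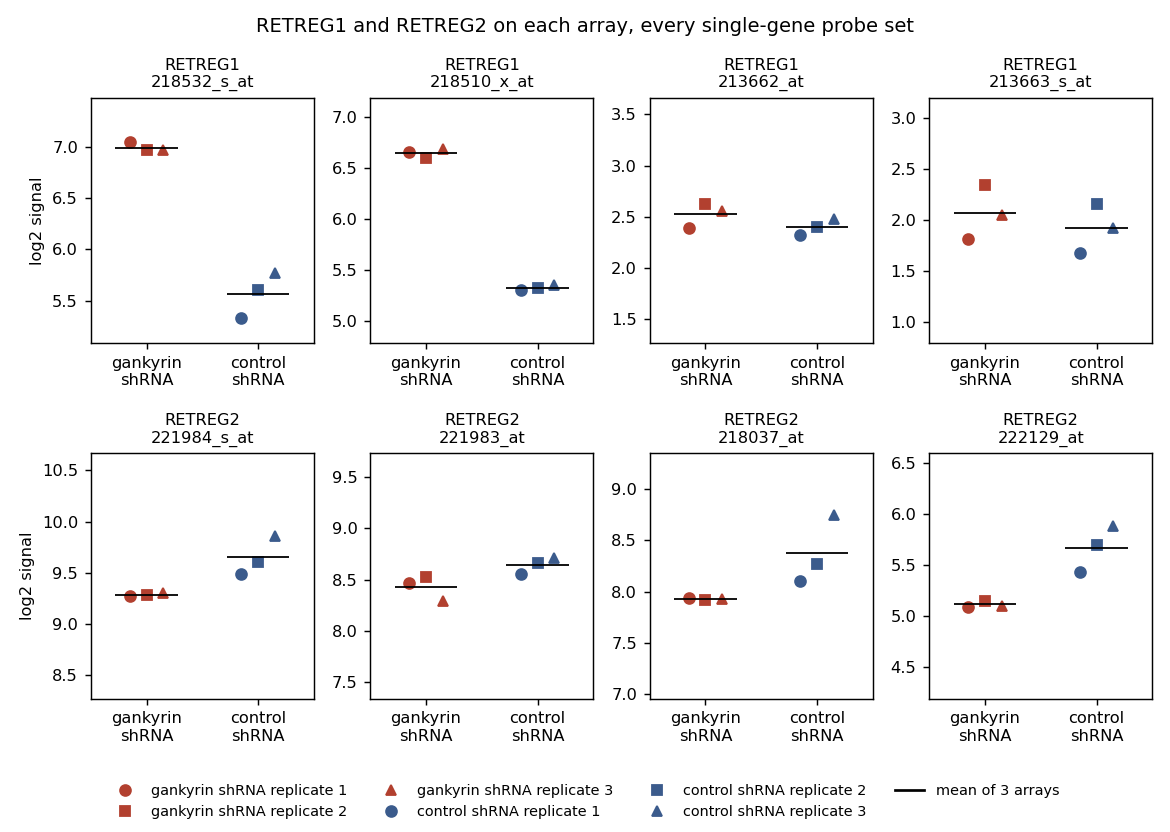
Log2 signal (vertical axis, a span of 2.4 in every panel) of each RETREG1 (top) and RETREG2 (bottom) probe set with gankyrin shRNA (left, red) and control shRNA (right, blue). Marker shape gives the replicate and black lines the mean of 3 arrays. The first 2 RETREG1 panels are 1.43 and 1.32 higher with gankyrin shRNA, the last 2 overlap near the bottom of the scale, and RETREG2 is lower in all 4 panels.

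The other RETREG2 probe sets were lower as well, and none of the 4 had overlapping groups. Of all probe sets past the filter 35.5% did not overlap, and the 4 measure the same gene on the same arrays. Probe set 222129_at read 5.09, 5.15 and 5.10 with gankyrin shRNA, against 5.43, 5.69 and 5.88 with control shRNA, a difference of -0.55 ± 0.13 (SE, limma over all probe sets, adjusted p = 0.0358). Probe set 218037_at read 7.94, 7.92 and 7.93, against 8.10, 8.27 and 8.75. Its difference of -0.44 did not pass (limma adjusted p = 0.113) and was -0.26 without control replicate 3, where it passed (adjusted p = 0.0151). Probe set 221983_at was at -0.21 (limma adjusted p = 0.145). The probe set 221984_s_at had an adjusted p of 0.0484 in this probe set fit with limma. Both calls were lost without gankyrin shRNA replicate 1, 2 or 3 (adjusted p between 0.117 and 0.155), without control replicate 2 (0.0843 for 222129_at and 0.0845 for 221984_s_at) and with the replicate block (0.0579 and 0.0573). The call of 221984_s_at was also lost with array median centring, no filter and no intensity trend (limma adjusted p = 0.0668, 0.0594 and 0.0804).

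RETREG3, the remaining family member, did not pass. Its 1 probe set, 212697_at, read 7.75, 7.91 and 7.69 with gankyrin shRNA, against 7.87, 8.06 and 8.52 with control shRNA. Gankyrin shRNA replicate 2 lay above control replicate 1, so the groups overlapped. The difference of -0.37 ± 0.14 (SE) had the same size as that of RETREG2 with a wider 95% interval, -0.69 to -0.05 (limma adjusted p = 0.0955). Without control replicate 3 the difference was -0.18 (adjusted p = 0.0943), and without control replicate 1 it was -0.51 and passed (adjusted p = 0.0275).

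Of the 8 members other than RETREG1, 1 fell, 0 rose and 7 did not pass in the gene fit with limma, where 8.13% of all 14199 genes rose, 14.3% fell and 22.5% passed in either direction. The fall of 1 in 8 is near the share of all genes that fell. The share of all passing genes that were higher was 36.2%, and 60.7% when each array was centred on the median of the tested genes, where the median difference of all genes was 0.08 in place of -0.02. Under that centring the 8 members had 1 fall and 0 rises again. With no such centring, the median log2 difference of the 8 was -0.18 and 7 of them had a negative difference. With it the median was -0.08 and 5 were negative, and without control replicate 3 the median was -0.11 and 6 were negative, beside a median of -0.0033 for all genes. The groups did not overlap for 3 of the 8, against 40.3% of all genes. On single probe sets 2 of 19 fell and 1 rose, where 6.54% and 4.05% of all 32759 did, and 9 of the 19 did not overlap, against 35.5%.

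RTN3, the tubule receptor, read 10.14, 10.22 and 10.01 with gankyrin shRNA on probe set 219549_s_at, against 10.20, 10.32 and 10.49 with control shRNA. The groups overlapped, and the difference of -0.21 ± 0.08 did not pass (SE, limma adjusted p = 0.0810, 95% interval -0.39 to -0.04). Its second probe set 224564_s_at read 9.57, 9.71 and 9.49, against 9.67, 9.82 and 9.76, a difference of -0.16 (limma adjusted p = 0.201). Without control replicate 3 the 2 probe sets were at -0.14 and -0.16. Without control replicate 1 the first passed at -0.28 (limma adjusted p = 0.0332). The array probes cannot be assigned here to the long RTN3 isoform, which is the one that acts as receptor.

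ATL3, a GTPase that fuses ER tubules, gave probe sets that disagreed. Its brightest probe set 224893_at read 8.96, 9.0 and 9.05 with gankyrin shRNA, against 9.06, 9.12 and 9.27 with control shRNA, which is -0.15 ± 0.07 (SE, limma adjusted p = 0.158). The groups did not overlap, by a narrow margin. Probe set 223452_s_at was at 0.08 (limma adjusted p = 0.593) with overlapping groups. Probe set 223453_s_at read 5.62, 5.84 and 5.36, against 5.34, 5.32 and 3.65. Its difference of 0.84 (limma adjusted p = 0.255) came down to 0.28 without control replicate 3, which alone read below 5. The mean over the probe sets of ATL3 had the opposite sign, 0.26, to its brightest probe set. Without control replicate 3 the brightest was at -0.09 and 223452_s_at at 0.13.

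SEC62, the translocon member, was the receptor with the most probe sets, and they ran both ways. The brightest, 208942_s_at, read 10.21, 10.38 and 10.41 with gankyrin shRNA, against 10.22, 10.36 and 10.53 with control shRNA. This difference of -0.04 had a 95% interval of -0.22 to 0.14 (limma adjusted p = 0.791), and its sign turned without control replicate 3 (0.043), without gankyrin shRNA replicate 1 (0.025), with centring on the tested genes (0.063) and on its brightest probe set not ending in _x_at or _s_at (0.040). Probe set 208943_s_at read 9.83, 10.00 and 9.93, against 9.69, 9.72 and 9.62. It rose by 0.24 ± 0.06 (SE, limma over all probe sets, adjusted p = 0.0461), and this call was lost on leaving out any array but control replicate 3. The remaining 3 probe sets were at 0.04, -0.13 and -0.17 and did not pass.

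CALCOCO1, the soluble receptor, read 7.24, 7.04 and 7.15 with gankyrin shRNA on its probe set 209002_s_at, against 7.31, 7.37 and 7.76 with control shRNA. The groups did not overlap. The difference of -0.34 ± 0.12 missed the threshold (SE, limma adjusted p = 0.0683, 95% interval -0.60 to -0.07). Without control replicate 3 it was -0.20 (limma adjusted p = 0.0621), and without control replicate 1 it was -0.42 and passed (adjusted p = 0.0411).

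CCPG1 was the member other than RETREG1 whose brightest probe set was higher in mean with gankyrin shRNA. Its 1 single-gene probe set, 221156_x_at, read 7.51, 7.94 and 7.70, against 7.52, 7.60 and 7.59 with control shRNA. The difference of 0.15 ± 0.10 did not pass (SE, limma adjusted p = 0.355, 95% interval -0.09 to 0.38), and gankyrin shRNA replicate 1 lay below all controls. TEX264 read 6.02, 5.97 and 6.14 on probe set 218548_x_at, against 6.12, 6.15 and 6.13. Its difference of -0.09 (limma adjusted p = 0.503, 95% interval -0.28 to 0.10) became 0.01 with centring on the tested genes. The second TEX264 probe set, 233350_s_at, was at -0.12 (limma adjusted p = 0.552). The probe sets of CCPG1 and TEX264 ending in _x_at can bind related transcripts.

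**Figure D3:**
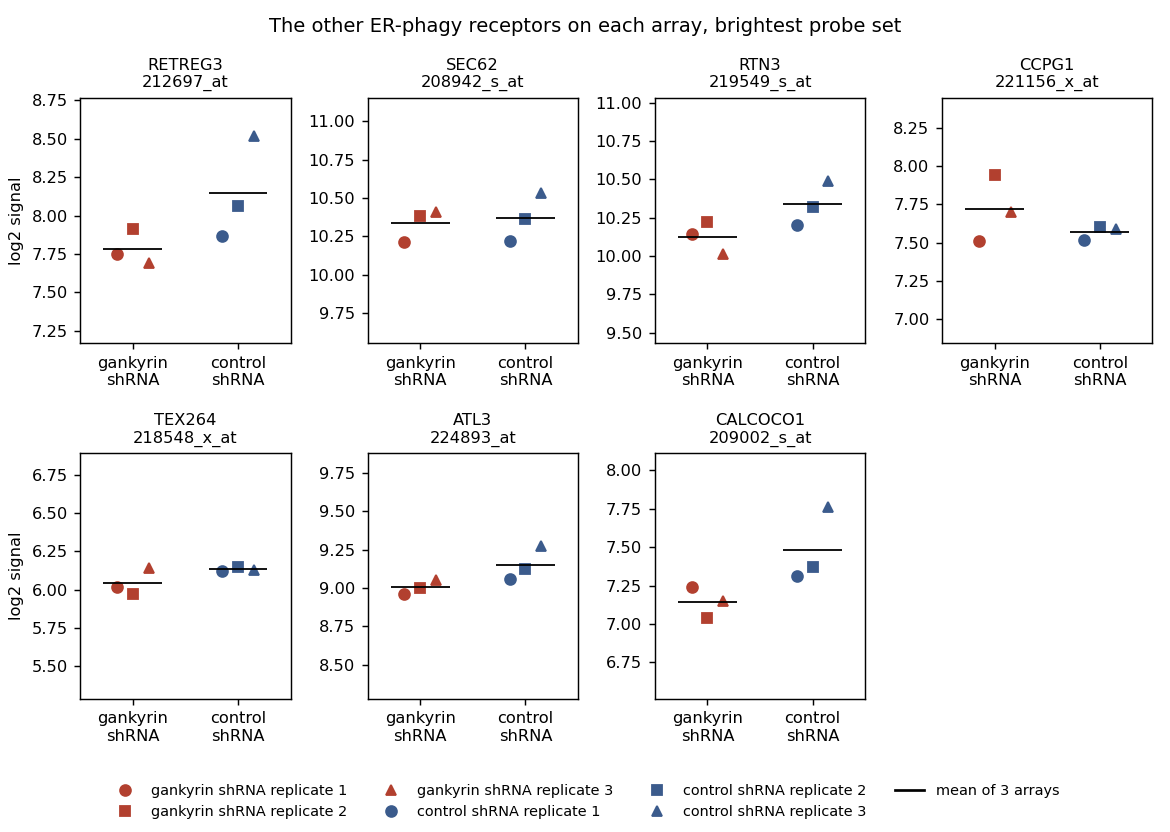
Log2 signal (vertical axis, a span of 1.6 in every panel) of the brightest probe set of each receptor other than RETREG1 and RETREG2, with gankyrin shRNA (left, red) and control shRNA (right, blue). Marker shape gives the replicate and black lines the mean of 3 arrays. ATL3 and CALCOCO1 do not overlap between groups, the other 5 do, and control replicate 3 is the highest control for RETREG3, SEC62, RTN3, ATL3 and CALCOCO1.

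**Figure D4:**
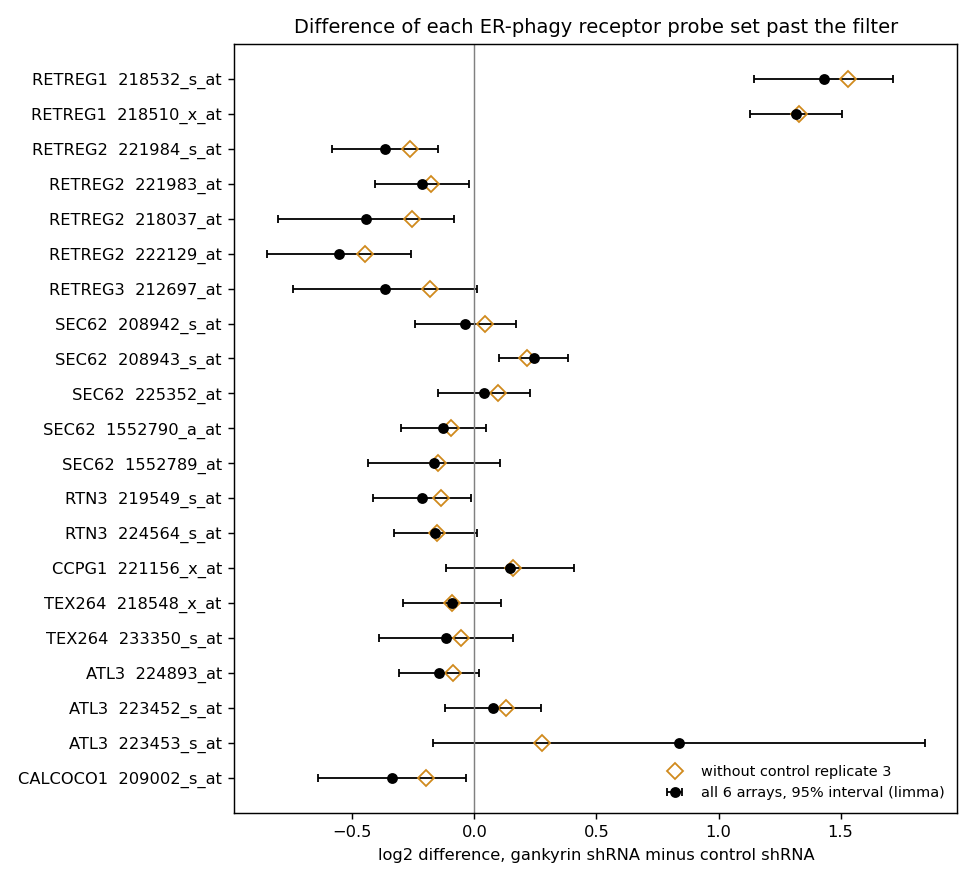
Log2 difference, gankyrin shRNA minus control shRNA (horizontal axis), for the 21 receptor probe sets past the filter. Black points with bars give the difference over all 6 arrays with its 95% interval from limma, and open diamonds the difference without control replicate 3. The RETREG1 probe sets stand at 1.43 and 1.32, and their bars are a description and no test, since RETREG1 was chosen by its rise. Most others lie between -0.55 and 0.24, with ATL3 223453_s_at at 0.84 and 0.28 without control replicate 3.

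Genes whose profile lay nearest to that of RETREG1 were found by the root mean square difference of log2 values over the 6 arrays, each gene centred on its own mean. The nearest 6 were MATN2, AADAC, FERMT2, AGR3, ASB9 and HPGD, at 0.085, 0.096, 0.104, 0.120, 0.121 and 0.146. MATN2, a matrilin of the extracellular matrix, read 8.38, 8.46 and 8.30 with gankyrin shRNA, against 6.76, 6.88 and 7.01 with control shRNA. AGR3, a disulfide isomerase family protein of the ER, read 8.84, 8.84 and 8.80, against 7.45, 7.55 and 7.83. Among the 6, AGR3 had the highest Pearson r with RETREG1, 0.997 over 6 arrays. All 6 differ between the groups as RETREG1 does, which sets such an r over 6 arrays, and 485 genes had an r over 0.95.

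Of 5 tested genes for the ATG8 proteins that the receptors bind 2 fell and 0 rose, with a median log2 difference of 0.01 beside -0.02 for all genes. Over all 14199 genes 14.3% fell and 8.13% rose, the shares to set beside the counts of this and the following lists. GABARAP read 10.80, 10.82 and 10.79 with gankyrin shRNA, against 11.07, 11.07 and 11.23 with control shRNA, and fell by 0.32 ± 0.05 on the log2 scale (SE, limma adjusted p = 0.00227). GABARAPL1 fell by 0.52 ± 0.12 (limma adjusted p = 0.0137), a call lost without gankyrin shRNA replicate 1 or 3 (adjusted p = 0.0685 and 0.0601). MAP1LC3B, an LC3 gene, was at 0.11 ± 0.07 (limma adjusted p = 0.326).

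Among 12 tested receptors for other autophagy cargo 3 fell and 2 rose, beside 14.3% and 8.13% of all genes, with a median of 0.04. OPTN, a receptor for ubiquitinated bacteria and mitochondria, read 6.59, 6.70 and 6.49 with gankyrin shRNA, against 7.73, 7.82 and 8.45 with control shRNA. It fell by 1.41 ± 0.16 on the log2 scale (SE, limma adjusted p = 3.79e-04). BNIP3L, the mitochondrial receptor also called NIX, was at 8.33, 8.31 and 8.37, against 8.99, 9.02 and 9.05 (limma adjusted p = 6.93e-05). SQSTM1, or p62, was at -0.38 ± 0.06 (limma adjusted p = 0.00192), but at 0.040 on its brightest probe set not ending in _x_at or _s_at. The rises were the CALCOCO1 relatives CALCOCO2 (0.28) and TAX1BP1 (0.17), named after their values were seen. The list had 0 rises without gankyrin shRNA replicate 2 or 3, with probe sets averaged, and with _x_at and _s_at avoided. It had 1 without gankyrin shRNA replicate 1 or control replicate 1, with array median centring and with no intensity trend, 3 without control replicate 3, and 4 with quantile normalization or centring on the tested genes.

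Of 28 tested genes of autophagy initiation and conjugation 5 fell and 1 rose, with a median of -0.08. Of all tested genes 14.3% fell and 8.13% rose. ATG3, the conjugating enzyme for ATG8 proteins, rose by 0.31 ± 0.05 (SE, limma adjusted p = 0.00322; 0.26 and 0.117 with _x_at and _s_at probe sets avoided), and WDR45, a phosphoinositide-binding WIPI protein, was at -0.44 ± 0.08 (adjusted p = 0.00377). Without gankyrin shRNA replicate 2 there was 1 fall, without control replicate 3 there were 4 rises, and centring on the tested genes gave 5 rises and 3 falls. Of 11 tested genes of the TFEB family and its lysosomal control 4 fell and 0 rose, with a median of -0.10. TFEB read 5.32, 5.38 and 5.47 with gankyrin shRNA, against 5.85, 5.68 and 6.38 with control shRNA, a difference of -0.58 ± 0.16 (SE, limma adjusted p = 0.0268). That call was lost without gankyrin shRNA replicate 1, 2 or 3 (adjusted p = 0.0994, 0.0872 and 0.0697) and with probe sets averaged (adjusted p = 0.0813). The counts became 3 rises and 3 falls with centring on the tested genes, 2 and 4 without control replicate 3, and 1 fall without gankyrin shRNA replicate 1 or 2.

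ER-shaping relatives of the members, such as the other reticulons, atlastins and REEP proteins, had 4 falls and 0 rises among 14 tested genes. Their median was -0.16, and over all tested genes 14.3% fell and 8.13% rose. RRBP1, a ribosome-binding protein of ER sheets, read 8.51, 8.56 and 8.52 with gankyrin shRNA, against 9.14, 9.24 and 9.79 with control shRNA. It was at -0.86 ± 0.14 (SE, limma adjusted p = 0.00224), and at -0.25 (adjusted p = 0.226) on another probe set. With 1 array left out the falls ranged from 1, without gankyrin shRNA replicate 3, to 5. Of 11 tested translocon genes and SEC62 partners 7 fell and 0 rose, with a median of -0.21, and HSPA5, SSR2 and SEC61B were at -0.27, -0.22 and -0.22. None of the 7 falls held with centring on the tested genes, where the count was 0. With 1 array left out it was between 3 (without gankyrin shRNA replicate 1 or 3) and 8 (without control replicate 3).

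**Figure D5:**
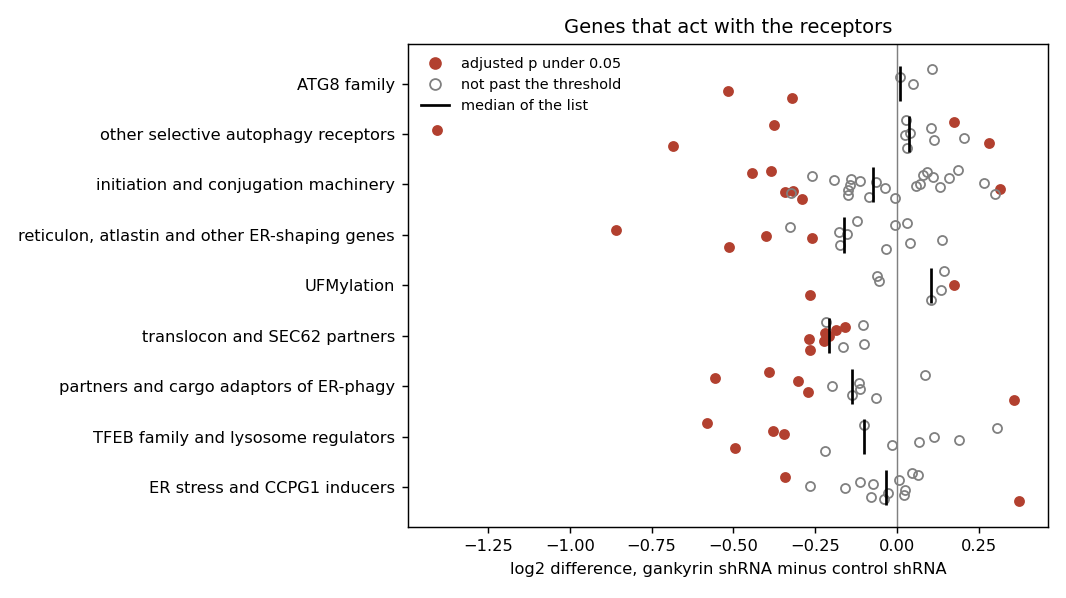
Log2 difference, gankyrin shRNA minus control shRNA (horizontal axis), of each tested gene in 9 lists of genes that act with the receptors. Filled red points passed an adjusted p of 0.05 in limma, open grey points did not, and black lines are list medians. The medians run from -0.21 for translocon genes to 0.10 for genes of UFMylation, a ubiquitin-like modification of ER proteins, and OPTN lies farthest out at -1.41.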

How the data were processed

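RNA was hybridised to 6 Affymetrix arrays of 1 colour (n = 3 per group), and the groups came from the sample titles. The table that the authors deposited holds signals per probe set on a log2 scale, running from 1.29 to 13.68 with array medians of 4.20 to 4.25. MAS5 is named without role or version, per the submitters' processing notes; no source used here gives the summary method, normalization or genome build. Probe sets were named from the platform annotation, with symbols updated to RefSeq (GRCh38.p14) through Entrez identifiers (19735 genes matched, 42 kept the older symbol). Of 54675 probe sets, 41091 had 1 gene, 1801 several, 11721 are not named here and 62 were manufacturer's controls.

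Controls were dropped, as were the 40% of remaining probe sets with the lowest mean signal (limit 3.6). Each gene took the brightest of its single-gene probe sets. Testing used lmFit and eBayes from limma 3.58.1 (R 4.3.3), two-sided and with a mean-variance trend, and p-values were adjusted over all 14199 genes by the Benjamini-Hochberg method. Single probe sets were tested in the same model over all 32759 probe sets past the filter. The threshold was an adjusted p of 0.05. The pipeline was tested on simulated data. RETREG1 is described without a test. The members and gene lists were chosen with earlier results of these data known. Other genes were named by this rule: PSMD10, NFIL3, up to 3 genes of smallest p per list, and the 6 genes whose centred profile lay nearest to that of RETREG1. CALCOCO2, TAX1BP1 and the markers CDX2, CDH1, KRT19, COL1A1, ITGAM, ENG, PTPRC, LUM, COL3A1 and CDH5 fall outside it and were named after their values were seen. Alternatives covered normalization, filter, variance model, choice of probe set, the replicate number as a block, and each array left out. Centring on the tested genes was added after seeing the data.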

Additional observations from a re-analysis of the deposited data

How the results depend on the processing

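The log2 difference of RETREG1 stayed between 1.31 and 1.53 with 1 array left out and was between 1.37 and 1.53 under the other alternatives. Avoiding _x_at and _s_at could not change it, since both RETREG1 probe sets past the filter carry such a mark. Probe set 218532_s_at stayed in use there. Over all genes, leaving out 1 array gave 613 to 1808 rises and 1071 to 2353 falls, beside 1154 and 2035, and centring on the tested genes gave 2274 rises. The members other than RETREG1 had 0 to 4 falls and 0 rises with 1 array left out, and 0 falls with _x_at and _s_at probe sets avoided. Avoiding them changed the probe set for RETREG2 and SEC62 only. RTN3, CCPG1, TEX264 and CALCOCO1 have no single-gene probe set without such a mark. The probe sets of the members other than RETREG1 had 0 or 1 rise and 0 to 3 falls with 1 array left out. Median centring of arrays, no filter and no intensity trend each gave 0 rises and 1 fall of their probe sets. The labels do not say whether equal replicate numbers pair the arrays. The deviations of same-numbered arrays correlated at 0.020, 0.11 and -0.0055, which cannot decide this with 3 arrays per group. With the replicate block there were 0 rises and 0 falls of member probe sets. The sign turned for ATL3 (0.26) and the kinase ERN1 (0.077) with probe sets averaged, for SEC62 (-0.11 to 0.043 with 1 array left out, 0.025 without gankyrin shRNA replicate 1, 0.043 without control replicate 3, 0.063 with centring on the tested genes), for TEX264 (0.01) with that centring, and for SEC62 and SQSTM1 (0.040 each) avoiding _x_at and _s_at. None of these had passed except SQSTM1. The cause of these changes was not tested, also where a named array or the added centring goes with the change. Having 3 arrays per group limits the precision.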

Other observations

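Another 4 probe sets name CCPG1 together with DNAAF4-CCPG1, a read-through transcript of CCPG1 and its neighbour, and so were not counted among the single-gene probe sets. Probe set 214151_s_at read 7.18, 7.12 and 6.96 with gankyrin shRNA, against 7.11, 7.18 and 7.33 with control shRNA. Probe set 221511_x_at read 7.52, 7.65 and 7.30, against 7.66, 7.64 and 7.61. Probe sets 214152_at and 222156_x_at differed by -0.16 and -0.20. All 4 were lower in mean with gankyrin shRNA and all 4 had overlapping groups, while the single-gene probe set of CCPG1 was higher in mean by 0.15.

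Beside the counts that follow, 8.13% of all tested genes rose and 14.3% fell. Of 7 tested genes of UFMylation 1 rose (UFC1, 0.17 ± 0.05 SE) and 1 fell (DDRGK1, -0.27 ± 0.07 SE), with a median of 0.10 (limma adjusted p = 0.0246 and 0.0279). Both calls were lost in other settings, UFC1 without gankyrin shRNA replicate 1, 2 or 3 and DDRGK1 without gankyrin shRNA replicate 2 or 3 or control replicate 2, and neither passed without the intensity trend. Centring on the tested genes gave 3 rises and 0 falls. Of 11 tested partners and kinases reported for the receptors 4 fell and 1 rose, with a median of -0.14. VAPB, a VAP protein that CALCOCO1 binds, was at -0.39 ± 0.09 (SE, limma adjusted p = 0.0130) and SEC24D, a coat protein of ER exit sites, at -0.56 ± 0.12 (adjusted p = 0.00752). The VAPB call was lost without gankyrin shRNA replicate 1 (adjusted p = 0.0617), with probe sets averaged (0.146) and with _x_at and _s_at avoided (0.115). Without gankyrin shRNA replicate 1 1 of the 4 falls was left, and centring on the tested genes gave 2 rises and 2 falls. Of 14 tested ER stress genes 1 rose (ATF3, 0.37 ± 0.07 SE) and 1 fell (SDF2L1, -0.34 ± 0.08 SE), with a median of -0.03 (limma adjusted p = 0.00484 and 0.0123). The ATF3 call was lost with probe sets averaged and with _x_at and _s_at avoided, where the difference was larger, at 0.43 (limma adjusted p = 0.0784) and 0.88 (adjusted p = 0.0700). The SDF2L1 call was lost without gankyrin shRNA replicate 2 or 3 (adjusted p = 0.0613 and 0.0565) and with centring on the tested genes (adjusted p = 0.0662), and there were 2 falls without control replicate 1.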
